A study of Mus musculus with 2 samples.

Results

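The histone genes whose symbols begin with Hist1h, Hist2h, Hist3h or Hist4h are 67 of the 32285 genes counted in LSECs of control and Maf LSEC-KO mice. They were taken from the gene table by these letters alone, with no use of their counts, and comprise 6 linker histone H1 genes, 18 H2A, 18 H2B, 12 H3 and 13 H4 genes. LSECs are the endothelial cells that line the sinusoids, the capillaries of the liver. Maf LSEC-KO mice carried the Clec4g-iCre transgene (tg/wt) together with Maf fl/fl. In them Cre, which is LSEC-selective from late fetal life, removes a part of *Maf*, a transcription factor gene. Controls were littermates without the transgene (Clec4g-iCre wt/wt) and with Maf fl/fl or Maf fl/wt, although the labels call them WT. The study used female and male mice of more than 1 age, and the labels give neither sex nor age for the pooled mice. Each condition was 1 library from the pooled livers of 3 mice, made with 3′ single-cell RNA-seq in droplets after selection for CD146, and a unique molecular identifier (UMI) marked each captured mRNA molecule. With 1 library per condition nothing could be tested between conditions, and every interval given is a 95% interval of counting error only.

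Replication-dependent histone genes encode the proteins around which newly copied DNA is wrapped. H2A, H2B, H3 and H4 form the nucleosome core and H1 binds the linker DNA between cores. Their mRNAs are made in S phase and, unlike other mRNAs, usually end after a short stem-loop instead of a poly(A) tail, and a few of these genes also give polyadenylated transcripts outside S phase. The libraries were primed on poly(A), so the UMIs count the molecules that this priming captured and not the whole pool of histone mRNA. Liver endothelium in the adult seldom divides.

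The deposited counts covered 5664 barcodes for control and 7091 for Maf LSEC-KO, each barcode with at least 500 UMIs, and totalled 47681895 and 89872764 UMIs. The libraries shared 10 barcodes. Filters, clustering, doublet removal and exclusion of *Vwf*-positive cells left 4119 control and 3252 Maf LSEC-KO LSECs, with a median of 8393 and 13861 UMIs. The *Vwf* rule left out a larger share of the endothelial cells in Maf LSEC-KO than in control. Ratios with doublets or *Vwf* cells kept are given further on. Levels are given as counts per 1000000 (CPM), that is, UMIs divided by the 32928292 and 40158019 UMIs of these LSECs outside mitochondrial and ribosomal protein genes. *Maf* fell from 3458 to 125 CPM, a log2 ratio of −4.80, although the sources do not say whether the counted 3′ end lies in the deleted part. The endothelial genes *Pecam1* and *Cdh5* stood at 711 and 985 CPM in control and at 774 and 1061 CPM in Maf LSEC-KO LSECs. The LSEC markers *Clec4g* (3007 and 1508 CPM) and *Stab2* (1629 and 178 CPM) were present in both and lower in Maf LSEC-KO. Mitochondrial and ribosomal protein genes took a median of 12.1% of the UMIs of a control LSEC and 22.3% of those of a Maf LSEC-KO LSEC.

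Histone cluster UMIs were more frequent in Maf LSEC-KO LSECs. The 67 genes summed to 13328 UMIs or 405 CPM (398 to 412) in control LSECs. In Maf LSEC-KO they summed to 67364 UMIs or 1677 CPM (1665 to 1690), which is 2.05 (2.02 to 2.08) above control on the log2 scale. Of the 67 genes, 60 had a UMI in the LSECs of both libraries. *Hist1h2ao* (7 UMIs), *Hist1h3h* (9 UMIs) and *Hist2h2aa2* (1 UMI) were found in Maf LSEC-KO LSECs but not in control, and *Hist1h2aa*, *Hist1h2ba*, *Hist1h2bq* and *Hist1h4m* had 0 UMIs in the LSECs of both. At least 10 CPM were reached by 9 genes in control and by 24 in Maf LSEC-KO LSECs. Of these 24, which include all 9 of control, 20 (83.3%) were at least 2-fold higher in Maf LSEC-KO and 0 were at least 2-fold lower. Of all genes with at least 10 CPM in either library, 10.4% were at least 2-fold higher and 4.57% at least 2-fold lower. The median log2 ratio was 2.43 over the 24 histone genes and 0.13 over all 9318 genes. The 4 histone genes that did not reach 2-fold were *Hist3h2a* (log2 0.12), *Hist1h1c* (0.66), *Hist1h2bc* (0.81) and *Hist1h2be* (0.90). Of the 24, 15 passed 10 CPM in Maf LSEC-KO alone and so entered through the library where they were higher, and genes below 10 CPM in both could not enter, so this count and median do not describe all 67. With no minimum, 61 of the 63 genes found in either library had more CPM in Maf LSEC-KO.

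To separate the cell cycle from the condition, LSECs with UMIs of at least 4 of 30 cycle genes were called cycling. The 30 genes, among them *Mki67*, *Top2a* and *Rrm2*, hold no histone gene. Cycling LSECs were 157 of 4119 in control (3.81%, 3.25 to 4.44) and 1006 of 3252 in Maf LSEC-KO (30.9%, 29.3 to 32.6). After each cell had been thinned to 2700 UMIs, the shares were 1.89% of 3707 and 15.04% of 3065 cells, so the calls depended on depth but their order did not. Cycling LSECs were deeper than the others, with a median of 14583 and 8222.5 UMIs in control and 21817 and 11682 UMIs in Maf LSEC-KO. Close to the limit, 62 control and 298 Maf LSEC-KO LSECs had exactly 3 of the cycle genes, and 33 and 165 had exactly 4. Doublet removal had taken out 8 cycling cells of endothelial clusters in control and 128 in Maf LSEC-KO.

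In both libraries the histone genes were higher in cycling than in other LSECs. In control they summed to 2292 CPM (2228 to 2356) in cycling and 272 CPM (266 to 278) in other LSECs, a log2 ratio of 3.08 (3.03 to 3.13). In Maf LSEC-KO they summed to 3120 CPM (3094 to 3146) and 460 CPM (451 to 469), a log2 ratio of 2.76 (2.73 to 2.79). Within a state the libraries were closer to each other than over all LSECs, with Maf LSEC-KO 0.45 (0.40 to 0.49) above control in cycling and 0.76 (0.72 to 0.80) in other LSECs on the log2 scale. Cycling LSECs held 6.59% of the LSEC UMIs but 37.3% of the histone UMIs in control, and 45.8% and 85.1% in Maf LSEC-KO. If the control levels of both states are weighted by the UMI share of cycling cells in Maf LSEC-KO, the sum becomes 1196 CPM, which is 1.56 above control on the log2 scale and 0.49 below the measured Maf LSEC-KO level. These ratios depended on how cells were called. Between the conditions, the ratio in cycling LSECs was 0.17 when cycling was called from 8 of the 30 genes and 0.70 without the cells that held a UMI of the leukocyte genes *Ptprc*, *Nkg7* or *Gzma*. After thinning, when fewer cells were called cycling, the log2 ratio of cycling to other LSECs was 3.98 in control and 3.72 in Maf LSEC-KO.

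Few cells carried much of the signal. In control, 92.4% of cycling and 73.8% of other LSECs had at least 1 histone UMI, and in Maf LSEC-KO 97.0% and 89.1%. A cycling LSEC held a median of 5 histone UMIs in control and 10 in Maf LSEC-KO, with a maximum of 499 and 1007. Other LSECs held a median of 1 and 3. The 50 LSECs with the most histone UMIs held 35.2% of the total in control and 35.9% in Maf LSEC-KO.

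H2A genes led in cycling cells and H3 genes were the rarest outside the cycle. H2A summed to 1200 CPM in control and 1670 CPM in Maf LSEC-KO cycling LSECs, against 68.8 and 118 CPM in other LSECs. H1 summed to 488 and 662 CPM in cycling and to 57.4 and 91.4 CPM in other LSECs. H2B was at 186 and 259 CPM in cycling and at 72.7 and 133 CPM in other LSECs. The step from other to cycling cells was thus larger for H2A than for H2B, its partner in the nucleosome core. H3 was at 197 and 250 CPM in cycling and at 10.9 and 25.7 CPM in other LSECs. H4 was at 221 and 279 CPM in cycling and at 61.9 and 91.9 CPM in other LSECs. On the log2 scale the ratio of cycling to other LSECs was 4.12 for H2A, 4.17 for H3, 3.09 for H1, 1.84 for H4 and 1.35 for H2B in control, and 3.82, 3.28, 2.86, 1.60 and 0.96 in Maf LSEC-KO.

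**Figure D1:**
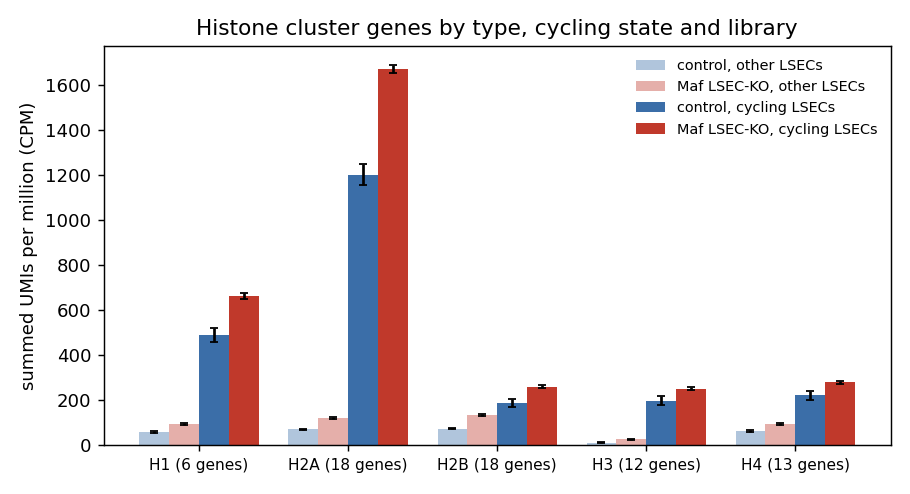
Summed CPM (y axis, linear) of the H1, H2A, H2B, H3 and H4 cluster genes in other (pale) and cycling (full colour) LSECs of control (blue) and Maf LSEC-KO (red), with 95% Poisson intervals of counting error. H2A reaches 1200 and 1670 CPM in cycling LSECs, while H2B, H3 and H4 stay between 186 and 279 CPM there.

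The share of each type among histone UMIs was alike in the cycling LSECs of both conditions. H2A took 52.4% in control and 53.5% in Maf LSEC-KO, H1 21.3% and 21.2%, H4 9.63% and 8.93%, H3 8.61% and 8.002%, and H2B 8.11% and 8.31%. In other LSECs the mixture was different, with H2B at 26.7% and 29.0%, H2A at 25.3% and 25.6%, H4 at 22.8% and 19.97%, H1 at 21.1% and 19.8% and H3 at 4.02% and 5.59%. Over single genes, Spearman's correlation of the CPM of the 2 libraries was 0.96 in cycling (63 genes) and 0.92 in other LSECs (60 genes), and that between cycling and other LSECs of Maf LSEC-KO was 0.77 (63 genes). Such correlations describe these libraries only, since the genes share library, depth and mapping.

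Within H2A, a pair of genes dominated. *Hist1h2ap* stood at 433 CPM in cycling and 3.19 CPM in other control LSECs, and at 725 and 13.2 CPM in Maf LSEC-KO. *Hist1h2ae* stood at 458 and 2.76 CPM in control and at 591 and 18.1 CPM in Maf LSEC-KO. Both were thus almost restricted to cycling cells, and cycling LSECs held 97.9% of the 13603 *Hist1h2ap* UMIs of Maf LSEC-KO. Over all LSECs the log2 ratio between the conditions was 3.43 (3.33 to 3.52) for *Hist1h2ap* and 3.1 (3.01 to 3.19) for *Hist1h2ae*, but within cycling LSECs it was 0.74 (0.65 to 0.84) and 0.37 (0.28 to 0.46). *Hist1h2ab* followed the same course at a lower level, with 106 and 133 CPM in cycling and 0.46 and 3.21 CPM in other LSECs of control and Maf LSEC-KO. *Hist2h2ac*, an H2A gene of the smaller cluster on chromosome 3, stood at 75.6 and 66.2 CPM in cycling and at 6.08 and 5.97 CPM in other LSECs, so that its log2 ratio over all LSECs (1.65) had no counterpart within either state (−0.19 and −0.03). *Hist3h2a* was not higher in cycling cells. It was at 41.5 CPM in cycling and 44.5 CPM in other control LSECs and at 41.6 and 53.7 CPM in Maf LSEC-KO, a log2 ratio of −0.10 (−0.42 to 0.21) and −0.37 (−0.50 to −0.24), and was the H2A gene with the most UMIs in other LSECs of both. *Hist1h2ac* was more than 2-fold higher in Maf LSEC-KO in both states, from 13.4 to 33.4 CPM in cycling and from 7.32 to 16.2 CPM in other LSECs. *Hist2h2aa1*, *Hist1h2an*, *Hist1h2ak*, *Hist1h2af* and *Hist1h2ai* lay between 6.91 and 20.3 CPM in cycling LSECs of either library.

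Among the linker histones, *Hist1h1b* was the gene most restricted to cycling cells. It had 209 CPM in cycling and 0.39 CPM in other control LSECs (454 and 12 UMIs), and 321 and 6.11 CPM in Maf LSEC-KO (5906 and 133 UMIs). *Hist1h1a* had the same form at a much lower level, with 14.3 and 28.1 CPM in cycling and 0.20 and 1.42 CPM in other LSECs. *Hist1h1d* stood at 48.4 and 48.7 CPM in cycling LSECs of control and Maf LSEC-KO and at 1.40 and 5.0 CPM in the others. *Hist1h1e* had 159 and 197 CPM in cycling and 26.7 and 46.2 CPM in other LSECs. *Hist1h1c* changed least among these 5, with 56.7 and 66.6 CPM in cycling and 28.7 and 32.6 CPM in other LSECs. The H1 signal of cycling cells was thus led by *Hist1h1b*, and that of other cells by *Hist1h1c* in control and *Hist1h1e* in Maf LSEC-KO.

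Outside the cycle, H2B UMIs came mostly from 1 gene. *Hist1h2bc* took 78.7% of the H2B UMIs of other LSECs in control and 80.9% in Maf LSEC-KO, at 57.2 and 108 CPM. In cycling LSECs it took 35.2% and 36.0% of the H2B UMIs, at 65.5 and 93.3 CPM, so that its log2 ratio of cycling to other LSECs was 0.19 in control (−0.06 to 0.44) and −0.21 in the Maf LSEC-KO library (−0.30 to −0.12). After thinning it was found in 8.57% of cycling and 11.08% of other control LSECs and in 11.5% and 17.4% of those of Maf LSEC-KO, so that the share in control had the opposite order to the CPM and no direction is read there. *Hist1h2be* followed at 23.0 and 24.9 CPM in cycling and 8.10 and 10.3 CPM in other LSECs. The H2B genes with a clear step with the cycle were all low. *Hist1h2bj*, *Hist1h2bb*, *Hist2h2bb*, *Hist1h2bn*, *Hist1h2bm*, *Hist1h2br*, *Hist1h2bg*, *Hist1h2bf* and *Hist1h2bh* reached between 2.77 and 24.0 CPM in cycling and between 0.033 and 2.30 CPM in other LSECs. *Hist2h2be* stayed between 3.40 and 5.07 CPM in every state and library.

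*Hist1h3c* led the H3 genes, with 81.6 and 95.8 CPM in cycling and 0.36 and 2.25 CPM in other LSECs. *Hist1h3e* (34.1 and 45.7 CPM in cycling LSECs), *Hist1h3f* (23.5 and 26.6), *Hist1h3b* (17.5 and 18.4), *Hist1h3i* (17.5 and 17.3) and *Hist1h3d* (10.6 and 21.8) came next, and *Hist1h3a* and *Hist2h3b* stayed at or below 10.8 CPM. *Hist1h3d* was the H3 gene with the most UMIs in other LSECs of Maf LSEC-KO, at 7.35 CPM against 1.20 CPM in control. *Hist2h3c1*, which shares 1825 exon bases on the same strand with *Gm20634* and has no 90-base stretch of its own in the annotated transcripts, was at 3.87 CPM in other and 0.46 CPM (1 UMI) in cycling control LSECs. In Maf LSEC-KO it was at 3.58 and 2.99 CPM, a log2 ratio of cycling to other LSECs of −0.26 (−0.78 to 0.26).

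Among the H4 genes, *Hist1h4d* was found in both states, at 140 and 180 CPM in cycling and 40.2 and 54.2 CPM in other LSECs, and it took 63.3% and 64.5% of the H4 UMIs of cycling cells. *Hist1h4h* was at 21.7 and 27.9 CPM in cycling and 5.30 and 8.26 CPM in other LSECs. *Hist1h4i* was at 10.1 CPM in control and 22.8 CPM in Maf LSEC-KO cycling LSECs, and at 2.34 and 9.14 CPM in the others. *Hist1h4c* (13.4 and 13.7 CPM in cycling LSECs), *Hist1h4a* (7.84 and 9.36), *Hist2h4* (4.15 and 6.04) and *Hist1h4j* (5.53 and 2.99) were lower. *Hist4h4*, alone on chromosome 6, had 10.6 and 7.51 CPM in cycling and 6.01 and 7.25 CPM in other LSECs.

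**Figure D2:**
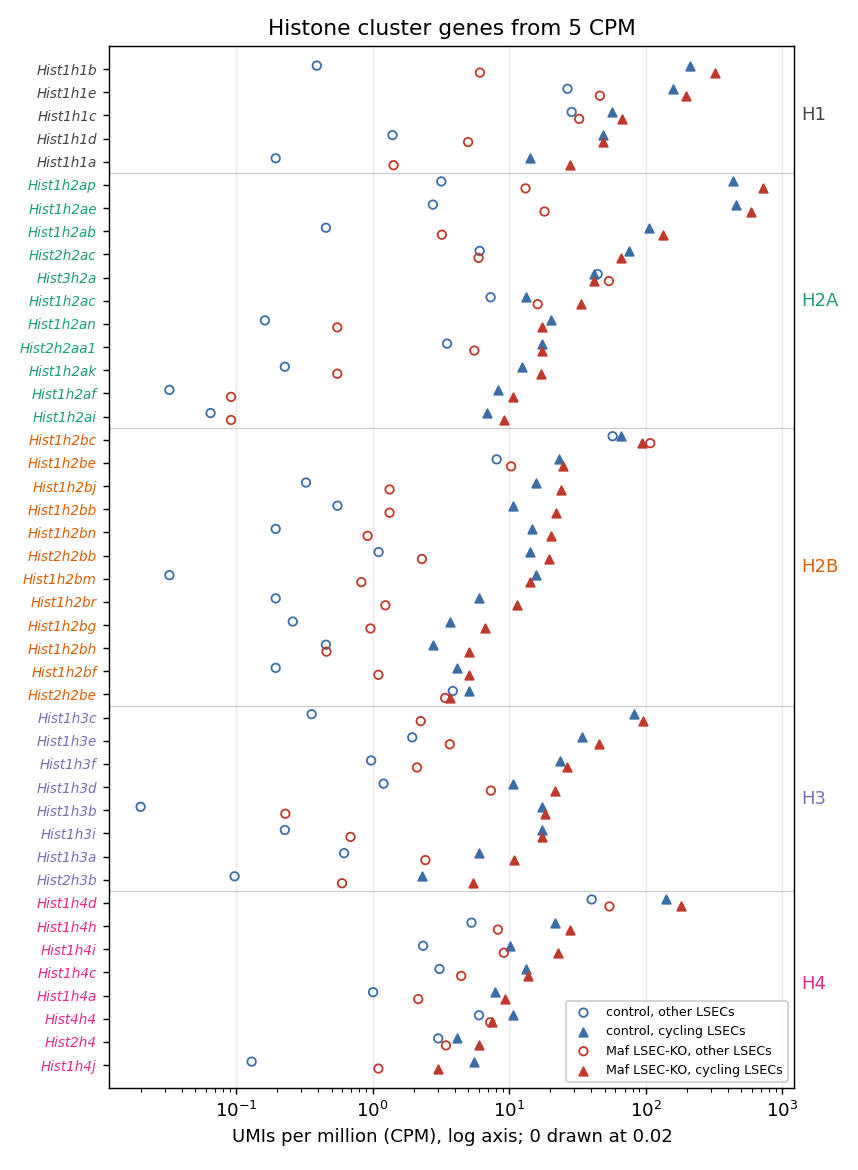
CPM (log axis, 0 drawn at 0.02) of the 44 histone cluster genes with at least 5 CPM in the LSECs or cycling LSECs of either library, in cycling (filled triangles) and other (open circles) LSECs of control (blue) and Maf LSEC-KO (red). *Hist1h2ap*, *Hist1h2ae* and *Hist1h1b* span over 5 log2 units between the states in each library, while the points of *Hist3h2a* and *Hist1h2bc* lie close together.

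With no minimum level, 57 of the 60 histone genes found in control LSECs had more CPM in cycling than in other LSECs, and in Maf LSEC-KO it was 59 of 63. In control, 27 of the 32 histone genes with at least 10 CPM in either state were at least 2-fold higher in cycling LSECs, where the share over all genes was 6.39%. In Maf LSEC-KO it was 32 of 34, against 4.74% of all genes. Of these genes 27 of the 32 and 25 of the 34 reached 10 CPM in cycling LSECs alone and so entered through the state where they were higher, which makes these counts a description of the genes that passed and not of all 67. Between the conditions, 4 of 35 histone genes (11.4%) were at least 2-fold higher in cycling LSECs of Maf LSEC-KO, against 7.25% of all genes, namely *Hist1h2ac* (log2 1.32), *Hist1h4i* (1.17), *Hist1h3d* (1.04) and *Hist1h2bb* (1.04). In other LSECs it was 3 of 9 (33.3%), against 7.28% of all genes, namely *Hist1h2ae* (2.71), *Hist1h2ap* (2.05) and *Hist1h2ac* (1.14). The first pair are set beside neutrophil-like cells further on and are not read there as a difference between conditions. The medians of these 2 comparisons were 0.36 and 0.79 for the histone genes and 0.06 and 0.11 for all genes.

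Along the cycle genes the histone sum did not rise evenly. In control LSECs with 0, 1, 2 to 3 or 4 to 7 of the 30 genes it was 279, 273, 232 and 348 CPM. It was 938 CPM with 8 to 15 genes (39 cells) and 5799 CPM with 16 to 30 genes (43 cells). In Maf LSEC-KO the same groups had 458, 453, 467, 480, 834 (277 cells) and 6396 CPM (353 cells). Histone UMIs were therefore concentrated in the cells with most cycle genes. Between the conditions the log2 ratio was 0.71 with 0 genes, 0.73 with 1, 1.005 with 2 to 3, 0.46 with 4 to 7, −0.17 with 8 to 15 and 0.14 with 16 to 30.

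Cells with at least 8 of the 30 genes were further divided by the share of S phase genes among their UMIs of 39 S phase and 52 G2/M phase genes. Where S phase genes held at least 50% of these UMIs, the histone sum was 192 CPM in control (28 cells) and 358 CPM in Maf LSEC-KO (181 cells). With 25 to 50% it was 4324 CPM (23 cells) and 5217 CPM (239 cells), and below 25% it was 6607 CPM (31 cells) and 6520 CPM (210 cells). The histone UMIs captured here were thus lowest in the cells that leaned most to the S phase list, in both libraries. *Hist1h2ap* followed this order with 2.43 (1 UMI), 1033 and 1257 CPM in control and 24.5, 1385 and 1468 CPM in Maf LSEC-KO. *Hist1h1b* had 4.86 (2 UMIs), 464 and 632 CPM in control and 19.9, 644 and 609 CPM in Maf LSEC-KO. *Hist1h4d* had 36.4, 215 and 339 CPM in control and 62.8, 264 and 352 CPM in Maf LSEC-KO. *Hist3h2a* had 36.4, 14.9 and 40.9 CPM in control, from 15, 4 and 21 UMIs, which are too few to read an order. In Maf LSEC-KO it had 15.2, 34.0 and 61.6 CPM. How well these lists order LSECs in time was not tested. Between the libraries the log2 ratio of the sum was 0.90 in the cells leaning to S phase, 0.27 in the middle and −0.02 (−0.07 to 0.03) in the cells leaning to G2/M. When the same split was made in all cells with at least 4 of the 30 genes, it was 0.69 (0.47 to 0.92), 0.81 (0.73 to 0.90) and −0.11 (−0.16 to −0.06). The order of the first pair of groups and the interval of the last thus depended on which cells entered.

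**Figure D3:**
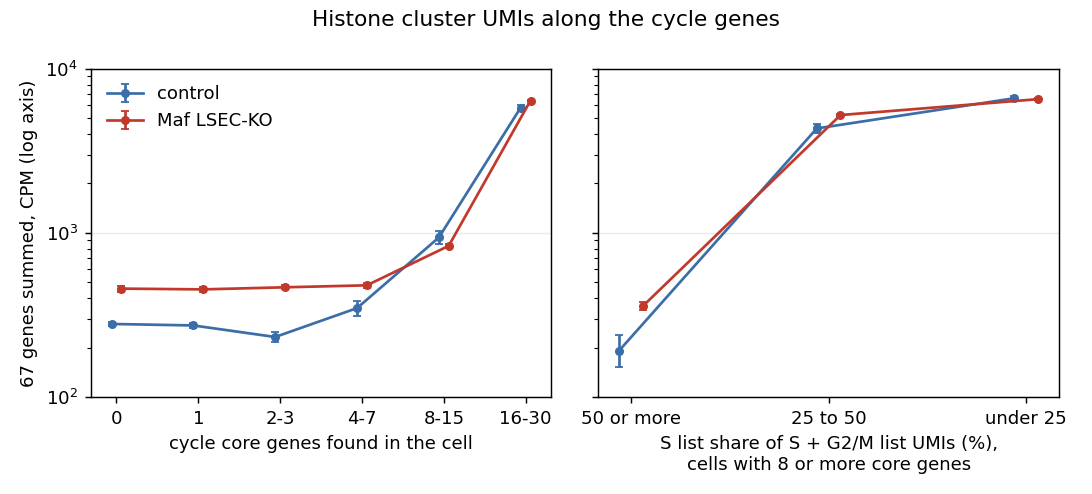
Summed CPM of the 67 genes (log axis) by the number of cycle genes found in a cell (left) and, for cells with at least 8 of them, by the share of S phase genes among S and G2/M phase UMIs (right), in control (blue) and Maf LSEC-KO (red) with 95% Poisson intervals. Both libraries stay between 232 and 480 CPM up to 7 cycle genes and reach 5799 and 6396 CPM from 16.

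The 5 genes with the most UMIs in other LSECs of both libraries, *Hist1h2bc*, *Hist3h2a*, *Hist1h4d*, *Hist1h1c* and *Hist1h1e*, all had long annotated 3′ ends. Of the 67 genes, 44 carry, after the stop codon of a GENCODE M21 transcript (mm10), 16 bases that follow the pattern of the histone stem-loop, GGNNCTNTNNAGNNCC. There were 6 forms of these 16 bases, the commonest in 26 genes. 13 genes have no annotated bases after the stop codon, so that no match could be found there. The stem-loops of some leading genes are given 5′ to 3′ as DNA letters from the transcripts, with the 16 bases in capitals between flanking bases, to show that genes almost restricted to cycling cells and genes found in both states share them.
Hist1h2ap: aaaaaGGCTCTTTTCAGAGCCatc
Hist1h2ae: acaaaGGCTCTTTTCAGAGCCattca
Hist1h3c: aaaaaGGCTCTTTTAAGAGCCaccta
Hist2h2ac: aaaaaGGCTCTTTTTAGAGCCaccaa
Hist1h4d: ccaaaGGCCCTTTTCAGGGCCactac
Hist1h1c: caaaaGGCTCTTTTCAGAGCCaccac
Hist1h1e: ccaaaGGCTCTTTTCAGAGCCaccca
Hist3h2a: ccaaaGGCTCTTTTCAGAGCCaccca
The same 16 bases thus stand in *Hist1h2ap*, *Hist1h2ae*, *Hist1h1c*, *Hist1h1e* and *Hist3h2a*. What differed was the annotation beyond them. After the stem-loop the longest annotated 3′ end goes on for 3 bases in *Hist1h2ap*, 74 in *Hist1h3c* and 151 in *Hist1h2ae*, but for 770 in *Hist1h4d*, 840 in *Hist1h1c*, 1153 in *Hist1h1e* and 1643 in *Hist3h2a*. *Hist1h2bc*, with 742 bases after the stop codon, and *Hist2h2be*, with 2192, have no match to the pattern, which says only that these letters are not there.

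Of the 44 genes with at least 5 CPM, 19 have 300 or more annotated bases after the stop codon and 25 have fewer, a limit chosen after the values were seen. Among the 25, *Hist1h1b*, *Hist1h2ai*, *Hist1h2ak*, *Hist1h2an*, *Hist1h2bn*, *Hist2h2bb*, *Hist1h3i* and *Hist1h2af* have 0 or 1 such base. Their 3′ ends may be unannotated instead of short, and the values below take the annotated length as it stands. In Maf LSEC-KO the median log2 ratio of cycling to other LSECs was 1.44 for the 19 (−0.37 to 3.65) and 4.30 for the 25 (1.63 to 6.86). In control the medians were 2.11 and 5.98. Cycling LSECs held 66.1% of the UMIs of the genes with long 3′ ends and 95.9% of the others in Maf LSEC-KO, and 16.7% and 80.5% in control. Over genes, Spearman's correlation between the number of these bases and the ratio of cycling to other LSECs was −0.69 in control (43 genes) and −0.72 in Maf LSEC-KO (44 genes), a description of genes that share libraries and annotation. *Hist1h1d* did not follow this order, since it has 4884 annotated bases past its stem-loop and a log2 ratio of 5.11 in control and 3.28 in Maf LSEC-KO. The ranges of both classes overlapped. Of the 25 genes with short 3′ ends 19 were below 5 CPM in other LSECs of both libraries, and of the 19 with long ones 8, so these entered through cycling cells, which favours high ratios, and the medians describe only the genes that passed. With no minimum level, cycling LSECs held 16.4% of the UMIs of all 22 genes with long 3′ ends and 79.8% of those of the other 45 in control, and 65.8% and 95.8% in Maf LSEC-KO.

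**Figure D4:**
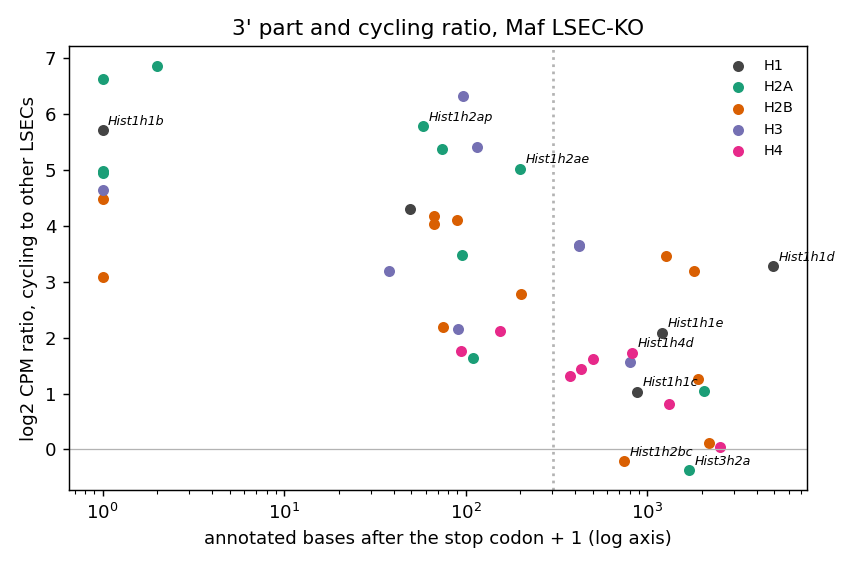
Annotated bases after the stop codon plus 1 (x axis, log) and log2 ratio of CPM in cycling to other LSECs of Maf LSEC-KO (y axis) for the 44 genes, coloured by histone type, with the limit of 300 bases dotted. Genes right of the limit lie between −0.37 and 3.65 and genes left of it between 1.63 and 6.86. Genes drawn at 1 have no annotated bases there, and their 3′ ends may be unannotated instead of short.

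Mapping limits some of these values. Of the 90-base stretches of its transcript, 7.63% were found in no other annotated transcript for *Hist1h2ap*, 68.1% for *Hist1h2ae* and 100% for *Hist1h1b*, so that reads of *Hist1h2ap* may be shared with near-identical copies. This share was 13.1% for *Hist1h2br*, 4.7% for *Hist1h2bq*, 11.5% for *Hist1h4m*, 7.16% for *Hist1h2ao*, 6.83% for *Hist1h3h* and 0% for *Hist2h2aa2*. Low or absent counts of these genes may therefore come from mapping. It was 100% for *Hist1h2aa* and 70.2% for *Hist1h2ba*, which also had 0 UMIs. Of *Hist3h2a*, 708 exon bases lie on the same strand in *Trim17*, and *Hist1h1e* shares up to 450 with *Hist1h2be*. 3′ counting gives 1 tag per molecule, so CPM were compared between genes without division by length.

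On mm10, 54 of the genes lie on chromosome 13 between 21715763 and 23934851, 10 on chromosome 3 between 96219865 and 96270132, 2 on chromosome 11 and 1 on chromosome 6. There were 13 divergent pairs with starts 176 to 660 bases apart, 12 of them an H2A with an H2B gene. Neighbours in a pair often had very different counts, within the limits of mapping given above. *Hist1h2ap* had 13603 UMIs in Maf LSEC-KO LSECs and its partner *Hist1h2br* 235. *Hist1h2ae* had 11259 and *Hist1h2bg* 143. The order was opposite for *Hist1h2ac* with 966 and *Hist1h2bc* with 4063, and for *Hist1h2ag* with 37 and *Hist1h2bj* with 470. *Hist1h2ak* and *Hist1h2bn* were close, with 324 and 395. The H2A gene was the higher in 6 of the 12 pairs and the H2B gene in 5, and in 1 pair neither was found.

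Promoters from RefSeq (GRCm38.p6, 250 bases before to 50 after the start) were matched for 62 of the genes. The letters TATAAA stood on either strand in 56.5% of them and in 15.7% of 27025 genes, and CCAAT in 85.5% and 41.1%. CCAAT was found in all matched H1, H2A, H2B and H3 promoters and in 3 of 12 H4 promoters. The octamer ATTTGCAT was found in 7 of 18 H2A and 7 of 16 H2B promoters and in 1.97% of all genes, and AAACACA in 5 of 6 H1 promoters and in 8.22% of all genes. The 100 bases before the start are shown for genes higher in cycling cells and for *Hist3h2a*, which was not, with TATAAA and CCAAT on either strand in capitals.
Hist1h1b, chr13:21780626-21780725, minus strand: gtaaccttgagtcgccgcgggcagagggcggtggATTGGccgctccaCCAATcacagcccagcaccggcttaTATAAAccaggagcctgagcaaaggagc
Hist1h2ae, chr13:23571221-23571320, minus strand: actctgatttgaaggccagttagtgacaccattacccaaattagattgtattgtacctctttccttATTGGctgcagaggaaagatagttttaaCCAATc
Hist1h1e, chr13:23622559-23622658, minus strand: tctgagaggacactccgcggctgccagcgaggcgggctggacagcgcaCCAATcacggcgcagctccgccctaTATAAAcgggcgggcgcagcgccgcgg
Hist1h4d, chr13:23581468-23581567, plus strand: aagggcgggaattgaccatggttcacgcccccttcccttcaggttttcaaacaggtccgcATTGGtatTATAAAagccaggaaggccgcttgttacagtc
Hist3h2a, chr11:58954585-58954684, plus strand: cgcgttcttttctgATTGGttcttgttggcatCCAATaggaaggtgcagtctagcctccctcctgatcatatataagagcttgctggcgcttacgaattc
Both *Hist1h1b* and *Hist1h1e* show TATAAA and CCAAT, although cycling LSECs held 97.8% of the UMIs of the first and the second also reached 46.2 CPM in other LSECs of Maf LSEC-KO. *Hist1h2ae* and *Hist3h2a* both show CCAAT on each strand and no TATAAA in these letters. In the whole matched promoter, TATAAA was found for *Hist1h2ae* but not for *Hist3h2a*. Among the genes with at least 5 CPM, TATAAA stood in 15 of 24 matched promoters of genes with short and in 7 of 15 of genes with long 3′ ends, and CCAAT in 23 and 12.

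Free RNA in droplets can give UMIs in cells that do not express a gene, so other LSECs were set beside other classes of cells with fewer than 4 cycle genes. The histone sum was 272 CPM in control and 460 CPM in Maf LSEC-KO LSECs, 545 and 706 CPM in macrophage-like cells (208 and 360 cells), 1012 and 1540 CPM in B cell-like cells (46 and 38 cells) and 885 and 837 CPM in neutrophil-like cells (40 and 85 cells). LSECs with fewer than 4 cycle genes thus had the lowest sum of these classes in both libraries. The other classes had fewer UMIs per cell, where this rule misses cycling cells more easily. *Mki67* was higher in macrophage-like and B cell-like cells than in LSECs. It was at 15.3 and 19.2 CPM in macrophage-like cells against 1.20 and 7.25 CPM in LSECs. In neutrophil-like cells it was at 6.23 CPM in control, which is the level of 1 UMI there, and 7.996 CPM in Maf LSEC-KO. These values are too close to those of LSECs, or rest on too few UMIs, to separate neutrophil-like cells from LSECs. Whether the order holds among cells outside the cycle was not tested. *Hist1h2ap* was found in 2.09% of other LSECs in control and 10.997% in Maf LSEC-KO. Mature neutrophils no longer divide, although *Ngp*, a gene of immature ones, was among the leading genes of the neutrophil-like cells of Maf LSEC-KO. In neutrophil-like cells *Hist1h2ap* was found in 0 of 40 (interval up to 8.81%) and 11.8% of 85, with a median of 3863 and 4297 UMIs per cell against 8222.5 and 11682 in LSECs. In CPM this was 0 and 32.0 in neutrophil-like cells and 3.19 and 13.2 in other LSECs. For *Hist1h2ae* the shares were 2.09% and 14.5% in other LSECs and 2.5% and 7.06% in neutrophil-like cells, and the levels 2.76 and 18.1 CPM against 6.23 and 15.99 CPM. In control these neutrophil-like values rest on 0 and 1 UMIs, with intervals up to 23.0 and 34.7 CPM, so they set no firm background level. The UMIs of these genes in other LSECs are not read as expression or as a difference between conditions. Whether they come from free RNA was not tested. *Hist1h2bc* and *Hist1h1c* were highest in neutrophil-like cells, at 293 and 293 CPM in control and 269 and 171 CPM in Maf LSEC-KO. *Hist1h1e* was highest in B cell-like cells, at 177 and 335 CPM. *Hist1h4d* and *Hist3h2a* were at 40.2 and 44.5 CPM in other control LSECs. In control neutrophil-like cells they had 6.23 CPM (0.16 to 34.7, 1 UMI) and 12.5 CPM (1.51 to 45.0, 2 UMIs). In Maf LSEC-KO *Hist1h4d* had 54.2 CPM in other LSECs and 5.33 CPM in neutrophil-like cells, but *Hist3h2a* had 53.7 and 47.98 CPM (28.4 to 75.8). The level of *Hist3h2a* in other LSECs was thus not separated from that in neutrophil-like cells in either library.

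**Figure D5:**
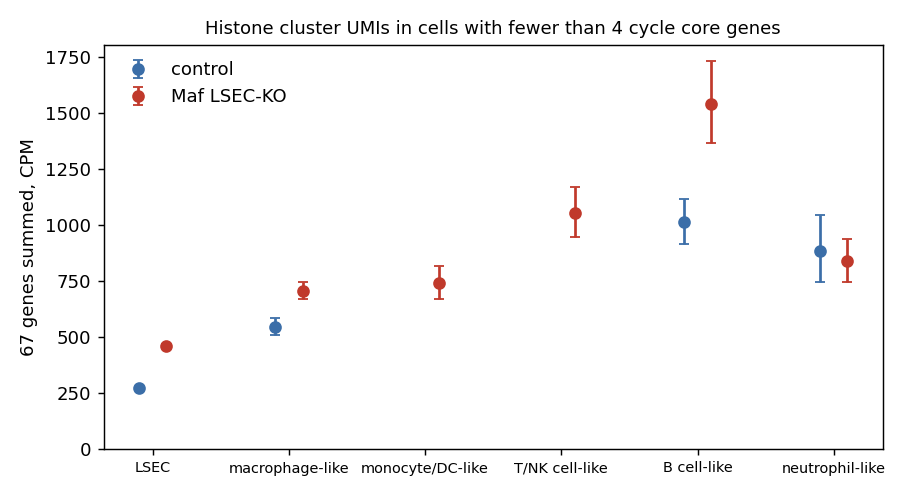
Summed CPM of the 67 genes (y axis, linear) in cells with fewer than 4 cycle genes of each named class, in control (blue) and Maf LSEC-KO (red), with 95% Poisson intervals of counting error. LSECs have 272 and 460 CPM, below every other class shown.

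Markers of other cell types were found in the LSECs, some of them more often in Maf LSEC-KO, whose cells were deeper. *Clec4f*, a macrophage marker, was found in 10.8% of cycling and 8.83% of other LSECs in control and in 24.6% and 18.2% in Maf LSEC-KO. *S100a8*, a neutrophil marker, was found in 3.18% and 1.94% in control and in 12.5% and 8.86% in Maf LSEC-KO. *Dcn*, a mesenchymal gene, was found in 7.01% of cycling control LSECs at 5.07 CPM and in 3.88% of those of Maf LSEC-KO at 80.4 CPM. *Ptprc*, a leukocyte gene, lay between 1.92% and 5.17% in the states of both libraries, and *Cd79a*, *Cd3e*, *Adgre1*, *Col1a1* and *Lrat* between 0 and 4.47%. At least 2 of 9 such markers were found in 10 of 157 cycling control LSECs (6.37%) and 97 of 1006 cycling Maf LSEC-KO LSECs (9.64%), and in 1.82% and 5.83% of other LSECs. Without these cells, the log2 ratio of the histone sum between the conditions was 2.08 over all and 0.52 in cycling LSECs. *Gzma*, a granule enzyme of cytotoxic lymphocytes, had 91.3 CPM in cycling control LSECs from 4 cells. Without the cells that held *Ptprc*, *Nkg7* or *Gzma*, *Hist1h2ap* in cycling LSECs was 359 CPM in control and 729 CPM in Maf LSEC-KO, in place of 433 and 725 CPM.

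In the Maf LSEC-KO library some LSECs still held *Maf* UMIs. Of 2559 cells with 0 *Maf* UMIs 31.7% were cycling, of 346 cells with 1 UMI 37.6%, and of 347 cells with 2 or more 19.0%. After thinning these shares were 15.9%, 15.8% and 8.16%. Among cycling cells, the histone sum was 3378 CPM in 810 cells without *Maf* and 1425 CPM in 66 cells with 2 or more *Maf* UMIs. In other LSECs it was 471 and 389 CPM. The 66 cycling cells were deeper than the 810, with a median of 30059 against 20556 UMIs. They were also lower in the S phase list (2869 against 3621.5 CPM) and the G2/M list (6459 against 9357 CPM), so the groups differed in more than *Maf*. Cells of 1 library are no replicates, and these values were not tested.

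Of 16 genes for histone gene transcription and mRNA processing, 15 reached 10 CPM and 2 were at least 2-fold higher in Maf LSEC-KO, the S phase regulators *E2f1* (log2 1.82) and *Ccne1* (3.14), and 0 were lower. This share was near that of 10.4% over all genes, which is also the background of the later counts between the conditions over all LSECs in this paragraph. *Slbp*, which binds the stem-loop, had a log2 ratio of 0.29, and *Npat*, the coactivator of histone genes, 0.08. In cycling against other LSECs 7 of the 15 were at least 2-fold higher in control and 4 in Maf LSEC-KO, against 6.39% and 4.74% of all genes. Of 10 histone chaperone genes 5 were at least 2-fold higher in Maf LSEC-KO, namely *Asf1b* (2.53), *Chaf1a* (1.81) and *Chaf1b* (1.79), which hand H3 and H4 to new DNA, the acetyltransferase *Hat1* (1.44) and the H3 and H4 carrier *Nasp* (1.30). Of 10 replication-independent variants with at least 10 CPM 3 were, namely *H1fx* (4.55), *H2afx* (2.44) and the centromeric *Cenpa* (1.02), while *H2afz* (0.87) and *H3f3b* (0.73) were not. Within cycling LSECs 0 of 15 processing, 0 of 10 chaperone and 1 of 10 variant genes were at least 2-fold higher in Maf LSEC-KO, against 7.25% of all genes. For other LSECs the counts were 0 of 13, 0 of 7 and 2 of 10, against 7.28% of all genes.

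Many cycle genes passed 2-fold over all LSECs and few within cycling ones. Of the S phase list 27 of 37 and of the G2/M list 40 of 50 genes were at least 2-fold higher in Maf LSEC-KO LSECs, with medians of 1.55 and 2.42. Within cycling LSECs 1 of 39 S phase genes was higher, and 1 of 52 G2/M genes was higher and 1 lower, against 7.25% of all genes higher. Of the 30 genes by which cycling was called 15 are in each of these lists, so that like levels of them within cycling LSECs are in part set by the call. *Mki67*, *Top2a*, *Rrm2* and *Pcna* had log2 ratios of 2.55, 2.52, 2.85 and 0.90 over all LSECs and of −0.24, −0.25, 0.13 and −0.22 within cycling LSECs, where of these 4 *Pcna* was not used for the call. Over the 24 clusters of both libraries, the genes outside the list whose CPM were most like *Hist1h2ap* were *Utp14a* (Spearman's rho 0.91), *Aurkb* (0.90), *Reep4* (0.90), *Knl1* (0.86) and *Prim1* (0.86). For *Hist1h2ae* they were *Mki67* (0.91), *Utp14a* (0.90), *Top2a* (0.90), *Prim1* (0.88) and *Birc5* (0.87), and for *Hist1h1b* *Aurkb* (0.89), *Prim1* (0.89), *Hat1* (0.88), *Utp14a* (0.88) and *Spc25* (0.87). The clusters share libraries and depth, and the histone genes took part in the clustering.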

How the data were processed

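LSECs of 1 control and 1 Maf LSEC-KO library were analysed. The deposited values are raw UMI counts for each gene in each barcode, which the authors obtained with Cell Ranger 6.0.2 on mm10, without normalization. The version of the gene reference is not given in the sources used here. Per the labels Seurat 5.0.1 was also used. The subtraction of empty droplets that the study describes is not in these counts and was not repeated.

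Cells needed 1500 UMIs and 750 genes. Clustering was done per library (Seurat 5.3.0, R 4.3.3) on 2000 variable genes, with 16 (control) and 20 (Maf LSEC-KO) principal components and a resolution of 0.3. Scrublet in scanpy 1.11.5 marked 0 doublets with its automatic limit, so the highest-scoring cells (4.53% in control and 5.67% in Maf LSEC-KO) were removed. In endothelial clusters, 50% of cells or more had *Pecam1* and no fewer than 7 of 14 listed endothelial genes, and fewer had each of 6 genes of other types. Other clusters were named with the ending -like where 1 list alone had at least 3 markers among their 50 leading genes. A control cluster of 152 cells had all 14 endothelial genes but also *Arg1*. It and a Maf LSEC-KO cluster of 46 cells had such markers from several lists and stayed unnamed. A Maf LSEC-KO cluster of 197 cells with 6 mesenchymal markers met the endothelial rule and was kept. Control clusters of 591 cells with 3 hepatocyte markers and of 230 cells with 3 T/NK cell markers were kept by the same rule. So was a Maf LSEC-KO cluster of 75 cells with 3 hepatocyte markers. Cells with a *Vwf* UMI were left out, as in the study. UMIs were summed over cells, and a difference was counted from 2-fold with at least 10 CPM in either sum. Intervals are exact at 95%, Poisson for sums and ratios and Clopper-Pearson for shares (scipy 1.17.1). UMI depth per LSEC ranged from 1512 to 53852 in control and from 1506 to 103948 in Maf LSEC-KO.

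The genes and lists were chosen with earlier results of these data known. Named were the genes with at least 5 CPM in the LSECs or cycling LSECs of either library, list genes of at least 10 CPM where examples were needed, *Maf*, 4 cycle genes, and the 5 genes most like each of the 3 leading histone genes. Genes below this limit were named where a count turned on them. Alternatives covered scaling, among them TMM (edgeR 4.0.16), weighting of cells, doublets, filters, the cycling rule and thinning. Ratios and intervals were tested on simulated Poisson sums. These hold no spread between cells, so they checked the calculation and not whether the intervals fit these libraries.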

Additional observations from a re-analysis of the deposited data

Results flagged for a closer look

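For *Hist1h2bc*, the H2B gene with the most UMIs, the ratio of cycling to other LSECs had opposite signs in the control and Maf LSEC-KO libraries. The log2 ratio of cycling to other LSECs was 0.19 (−0.06 to 0.44) in control, at 65.5 and 57.2 CPM, and −0.21 (−0.30 to −0.12) in Maf LSEC-KO, at 93.3 and 108 CPM. The opposite signs drew attention to it. After each cell had been thinned to 2700 UMIs, the gene was found in a smaller share of cycling than of other LSECs in both libraries, 8.57% against 11.08% in control and 11.5% against 17.4% in Maf LSEC-KO, so the opposite signs were not seen there. The interval in control includes 0, so no direction is read there, and the difference between the libraries was not tested.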

How the results depend on the processing

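No paired analysis was possible because each group has 1 library. Of 109 values recomputed under alternatives 68 stayed the same and 41 moved, and where values moved the cause was not tested. A log2 ratio was the same if it stayed inside its main interval, and a count if it stayed near the main count. The sign of 0 log2 ratios was reversed, and the rule could not call a count reversed. For all LSECs (log2 2.05) the ratio of Maf LSEC-KO to control was 1.86 when scaled by the UMIs of all genes, 1.91 with TMM, 1.90 with the median of ratios, 1.84 as a mean over cells, 2.17 with doublets kept, 1.90 with *Vwf* cells kept, 1.89 after thinning, 2.08 without cells with 2 markers of another type and 1.84 without the leading gene. For cycling LSECs (0.45) it was 0.24 with the UMIs of all genes, 0.36 as a mean over cells, 0.57 with doublets, 0.34 with *Vwf* cells, 0.63 from 3 and 0.17 from 8 cycle genes, 0.52 without cells with 2 markers and 0.37 without the leading gene. For other LSECs (0.76) it was 0.58 with the UMIs of all genes, 0.61 with TMM and 0.59 with the median of ratios. The ratio of cycling to other LSECs in control (3.08) was 2.99 with TMM, 3.0 with the median of ratios and with doublets, 2.98 with *Vwf* cells, 2.65 from 3 and 3.82 from 8 cycle genes, 3.98 after thinning and 2.79 without the leading gene. In Maf LSEC-KO (2.76) it was 2.70 as a mean over cells, 2.80 with doublets, 2.58 with *Vwf* cells, 2.52 from 3 and 3.24 from 8 cycle genes, 3.72 after thinning, 2.79 without cells with 2 markers and 2.42 without the leading gene. Without a minimum CPM, 51 genes in place of 20 were at least 2-fold higher in Maf LSEC-KO and 52 in place of 32 in cycling LSECs of Maf LSEC-KO. The count of genes at least 2-fold lower was 0 under each alternative.

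Chosen after seeing the data, leaving out cells with a *Ptprc*, *Nkg7* or *Gzma* UMI gave 2.15 for all LSECs, 0.70 for cycling LSECs and 2.86 for cycling to other control LSECs, and leaving out the Maf LSEC-KO cluster led by platelet genes moved none of the 8 results. Control had 157 cycling LSECs, and 1 pool per condition leaves the spread between mice unknown.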

Other observations

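Across the 7 endothelial clusters of each library, the histone sum ranged from 244 to 2047 CPM in control and from 303 to 4611 CPM in Maf LSEC-KO. The highest control cluster was led by *Gzma*, *Mki67* and *Top2a*, and the highest Maf LSEC-KO cluster by *Hist1h2ap* and *Mki67*, so histone genes helped to define the latter. *Hist1h2bc* had another order. It ranged from 26.3 to 117 CPM over the control clusters and from 63.8 to 464 CPM over those of Maf LSEC-KO, where it was lowest in the cluster with the highest histone sum. The cluster with 464 CPM was led by the platelet genes *Ppbp*, *Nrgn* and *Pf4* and also had the most *Hist1h1c*, at 168 CPM. Without this cluster *Hist1h2bc* was at 106 CPM in other LSECs of Maf LSEC-KO in place of 108.

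In cycling macrophage-like cells the histone sum was 2934 CPM in control (11 cells) and 1155 CPM in Maf LSEC-KO (27 cells). Over 63 genes their profile in Maf LSEC-KO had a Spearman's correlation of 0.77 with that of cycling LSECs, and over 60 genes the correlation was 0.93 in cells with fewer than 4 cycle genes. These values come from few cells of the same libraries and were not tested.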
